A study of Mus musculus with 8 samples.

Results

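The Kruppel-like factors (KLFs) Klf2, Klf3, Klf4, Klf5, Klf6, Klf7, Klf9, Klf10, Klf13 and Klf15 are 10 of the 18957 genes listed for sorted mouse cardiac fibroblasts. They were chosen by name, and the other genes of the Sp/KLF family are treated as a list of their own. The cells were PDGFRA-positive, lineage-negative non-myocytes sorted from hearts, and their RNA was sequenced to ask what loss of LMNA, a nuclear envelope protein, does to cardiac fibroblasts. There were 4 libraries from wild-type (WT) mice and 4 from Pdgfra-Cre:LmnaF/F mice, here called mutant, all C57BL/6 (mixed) and 3 to 4 weeks old. The mutant mice carried 2 floxed alleles of Lmna (exon 2 is floxed) and a Cre transgene driven by Pdgfra on a bacterial artificial chromosome, whereas the WT littermates carried neither. Cre expression and loss of Lmna therefore cannot be told apart in these groups, and Pdgfra-Cre is also active in other PDGFRA-positive mesenchymal tissues and in a part of the cardiac myocytes. The labels do not say that each library came from a separate animal, so the p-values measure only the spread between these libraries.

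KLFs are transcription factors with zinc fingers at the carboxyl end, which bind GC-rich and CACCC sequences. Family members differ in the part outside the fingers, through which some recruit corepressors and others coactivators. In the heart and its vessels they are known for fast responses to growth factors, flow and injury (Klf2, Klf4, Klf6 and Klf10) and for slower, hormonal and circadian control of metabolism and growth (Klf9, Klf13 and Klf15).

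The promoters of Klf9 and Klf15 are shown because these are the members that stood highest in the same library below, and because both genes are known to answer to glucocorticoids and to the circadian clock. RefSeq (GRCm38.p6) gave a window of 250 bases before to 50 after the start for 8 of the 10 members, that is for all but Klf5 and Klf10. Each line runs 5′ to 3′ on the plus strand and ends 20 bases after the start, at chr19:23140976-23141245 for Klf9 and chr6:90462326-90462595 for Klf15. Capitals mark the E-box CACGTG, the sequence that clock proteins of the CLOCK and BMAL1 kind bind.
Klf9: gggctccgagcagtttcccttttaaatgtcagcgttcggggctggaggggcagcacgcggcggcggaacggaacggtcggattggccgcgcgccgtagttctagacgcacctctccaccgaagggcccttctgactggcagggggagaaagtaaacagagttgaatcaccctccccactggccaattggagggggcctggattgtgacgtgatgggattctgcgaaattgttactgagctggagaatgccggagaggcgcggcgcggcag
Klf15: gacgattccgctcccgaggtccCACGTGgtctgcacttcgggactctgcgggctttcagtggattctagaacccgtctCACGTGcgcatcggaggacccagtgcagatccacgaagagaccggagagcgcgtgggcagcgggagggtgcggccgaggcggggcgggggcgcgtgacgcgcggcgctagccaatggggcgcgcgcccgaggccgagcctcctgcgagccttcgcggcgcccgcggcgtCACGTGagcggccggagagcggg
The Klf15 window held 3 E-boxes, whose first bases lay 228, 172 and 3 bases before the start, whereas the Klf9 window held none. The last E-box of Klf15 overlaps a CRE half-site (TGACG or its complement CGTCA). Over all 32851 promoter windows, searched on both strands, 7.15% held an E-box and 29 (0.0883%) held 3 or more. Among the other members Klf4 and Klf6 each had 1.

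A GC box (GGGCGG), the kind of element that KLF and Sp proteins bind themselves, was in 7 of the 8 KLF windows, all but that of Klf9, against 35.7% of all windows. The CRE half-site TGACG was in 6 of 8 against 20.8%. No KLF window held the full CRE TGACGTCA (1.79% of all windows), the D-box TTATGTAA (0.938%), the glucocorticoid response element AGAACANNNTGTTC (0.0487%) or the letters TATAAA (13.6%). The windows were not matched for their content of G and C, so these gaps cannot be read as particular to KLF promoters. These are matches of letters in short windows, and binding was not measured.

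No member passed the test between genotypes. By edgeR's quasi-likelihood test with Benjamini-Hochberg adjustment over 13036 genes, 0 of the 9 members tested were called at an adjusted p of 0.05, beside 53 genes (0.407%) overall. Klf5 was too low to enter the test. The share of KLFs called is thus near that of all genes. DESeq2 also called 0 of the 9 (2.58% of the genes it tested), and 1 member, Klf15, had an unadjusted p under 0.05 in edgeR (11.9% of all genes tested). The fitted difference was upward in 4 members and downward in 5. The median log2 fold change over the 9 was -0.03, beside 0.02 over all genes tested, and the median size of the change regardless of sign was 0.33 over the members and 0.34 over all genes tested. Without mutant replicate 4, where Klf5 also entered the test, 7 were upward and 3 downward, with a median of 0.09. The mutant libraries all lay above the WT libraries for 1 member, Klf6, and this held for 4.06% of all genes tested. No member had the WT libraries all above the mutant ones, which held for 3.97% of all genes tested.

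The data limited how small a change could be seen. The standard error of the log2 fold change ran from 0.19 for Klf6 to 0.63 for Klf15, and the smallest change that was called for any gene was 0.98 in size. For 6 of the 9 members (Klf2, Klf3, Klf4, Klf6, Klf7 and Klf13) the 95% interval of the change lay within 1 log2 unit, a 2-fold difference, of no change. The intervals of Klf9, Klf10 and Klf15 reached further. The lowest count behind any tested member was 107, for Klf15 in WT replicate 3 (Poisson 95% interval 87.7 to 129, counting error only).

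**Figure D1:**
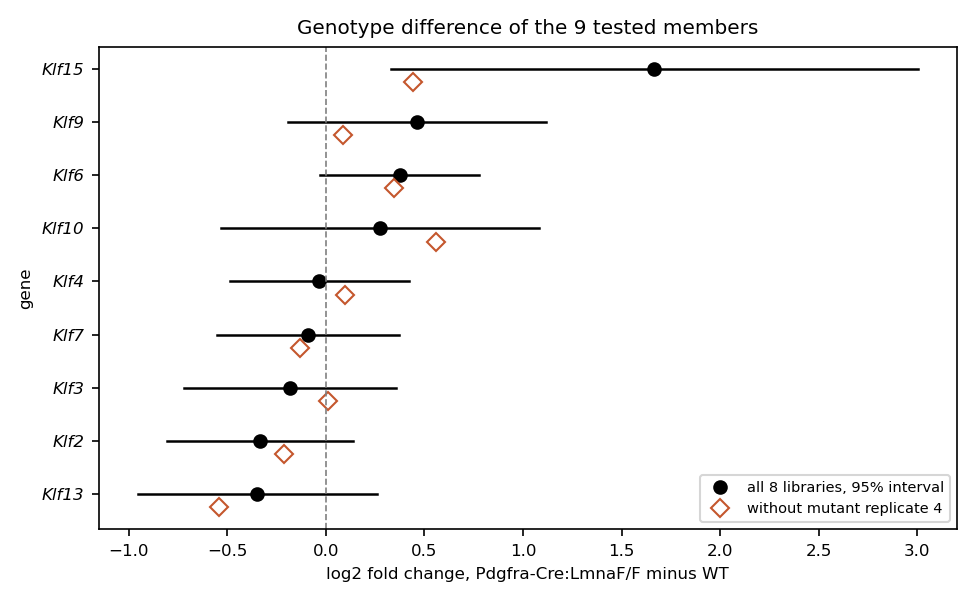
Log2 fold change of the 9 tested KLFs, mutant minus WT, with all 8 libraries (black points, bars are 95% intervals from the edgeR fit) and without mutant replicate 4 (open diamonds). The value of Klf15 is 1.67 with and 0.44 without that library, that of Klf9 is 0.46 with and 0.09 without it, and only the Klf15 interval with all 8 libraries lay clear of 0.

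The libraries held 2080555 (WT replicate 2) to 12502949 (mutant replicate 4) counts over genes. Lmna stood at 365 CPM (counts per 1000000 counts of the library, scaled with TMM factors) on average in WT and at 111 CPM in mutant libraries, a log2 fold change of -1.72 (SE 0.22, edgeR adjusted p = 0.00492), and every mutant library was below every WT library. The 8 fibroblast markers were high in all libraries, summing to 40549 to 55904 CPM. Of these 8 markers 0 were called, and Ddr2, at 410 to 545 CPM in WT and 315 to 405 CPM in mutant libraries, had all mutant libraries below all WT libraries (log2 fold change -0.31, edgeR adjusted p = 0.574). Mutant replicate 4 stood apart, since its 10 cardiac myocyte markers summed to 3509 CPM, beside 237 to 446 in the other mutant and 300 to 684 in the WT libraries. Its 10 leukocyte markers summed to 477 CPM, beside 49.1 to 187 elsewhere.

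Mutant replicate 4 was also the library at the edge of most KLF values. It was the highest of the 8 libraries for Klf9 and Klf15 and the lowest for Klf2, Klf3, Klf4 and Klf10, that is at an extreme for 6 of the 9 members tested, whereas it was at an extreme for 31.7% of all genes tested. WT replicate 2, the library with the fewest counts, was at an extreme for 4 members and mutant replicate 2 for 3. Over all genes tested these shares were 30.2% and 29.8%. The part that the myocyte and leukocyte markers of mutant replicate 4 have in its KLF values was not tested.

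**Figure D2:**
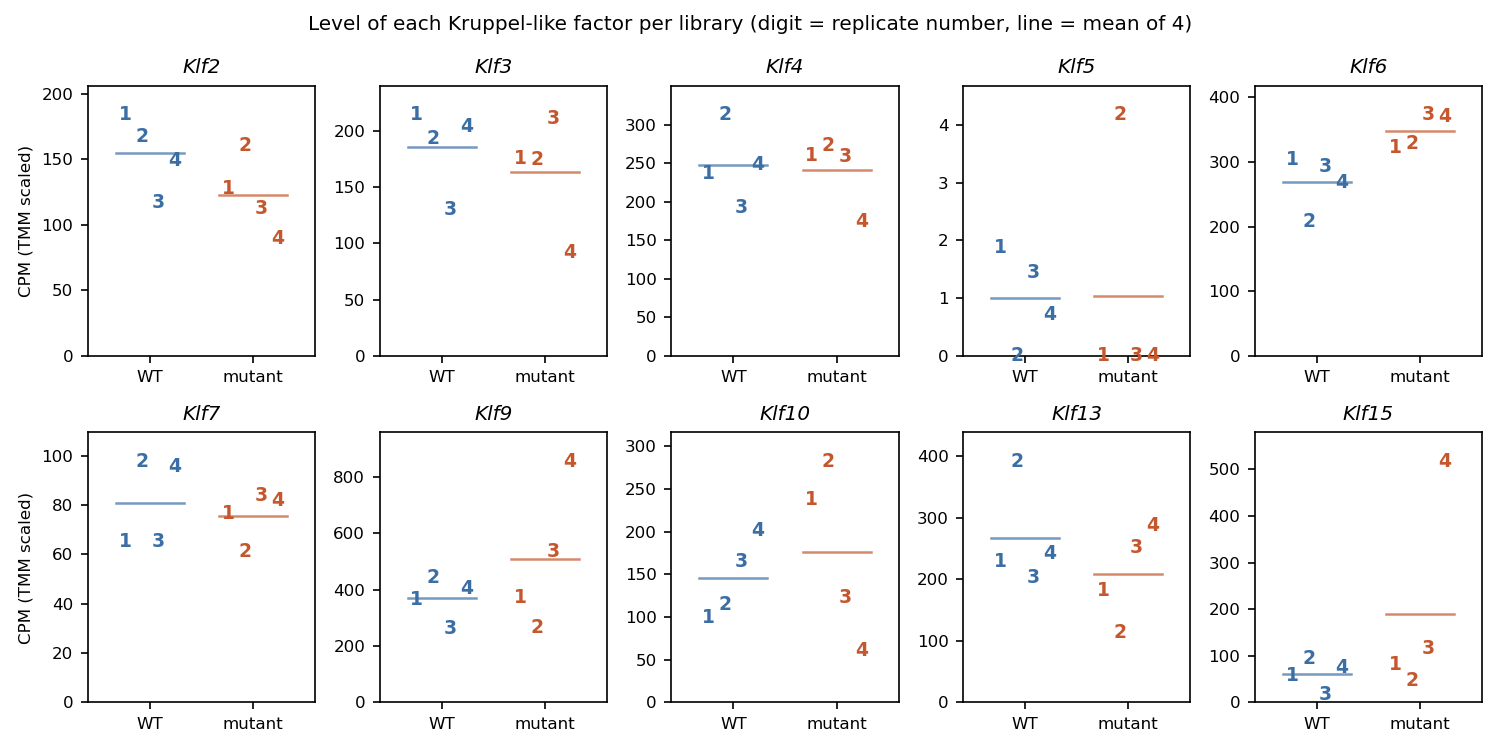
Level of each KLF in CPM (linear axes that start at 0), where each digit is 1 library, marked by its replicate number, and the line is the mean of 4. Only Klf6 shows all mutant libraries above all WT libraries, and mutant replicate 4 lies far above the rest for Klf15, at 517 CPM.

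Per length of exon, most KLFs were among the more abundant transcripts of these cells. In WT libraries the order of the means was Klf2 (83.6 CPM per kilobase), Klf4 (81.1), Klf9 (76.5), Klf6 (61.2), Klf13 (35.4), Klf10 (34.7), Klf15 (21.8), Klf3 (16.5), Klf7 (9.94) and Klf5 (0.194). The level of Klf2 was above that of 96.6% of the genes tested and the level of Klf7 above 67.1%. Neighbours in this order had overlapping ranges over the 4 WT libraries with the exception of Klf7 and Klf5, so the order within the upper members is loose.

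In mutant libraries the means ran Klf9 (105 CPM per kilobase), Klf6 (79.4), Klf4 (79.2), Klf15 (68.3), Klf2 (66.2), Klf10 (42.1), Klf13 (27.8), Klf3 (14.5), Klf7 (9.31) and Klf5 (0.200). Neighbours again overlapped, apart from Klf7 and Klf5. Klf15 moved from the seventh to the fourth place by its mean, which 1 library of 185 CPM per kilobase sets, since the other mutant libraries ran from 17.2 to 41.7.

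**Figure D3:**
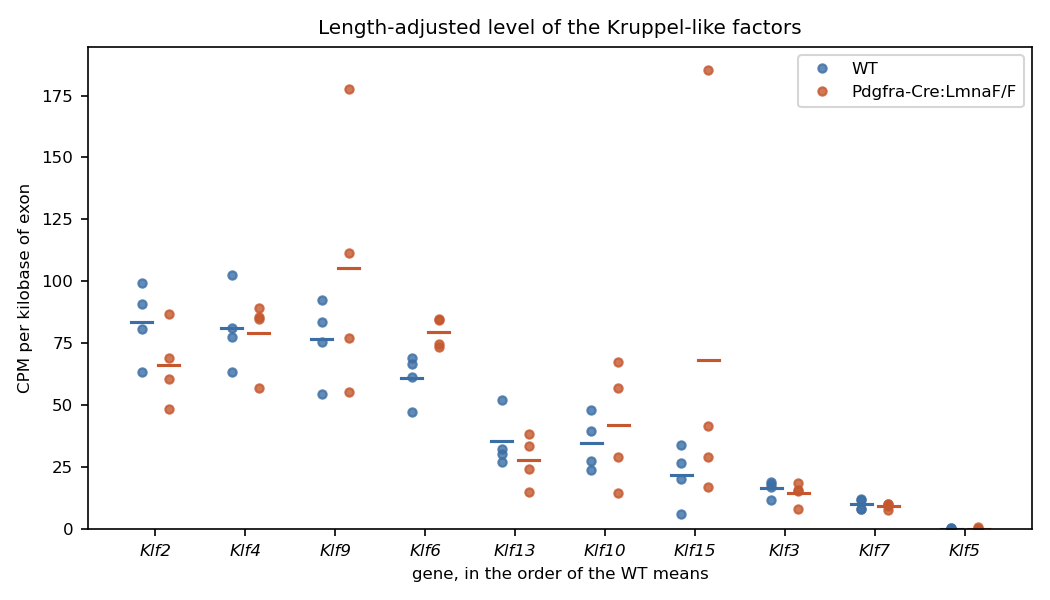
Length-adjusted level of the 10 KLFs in CPM per kilobase of exon, in the order of the WT means, where points are libraries and lines are means of 4. The points of neighbouring genes overlap except for Klf7 and Klf5, and the highest mutant points of Klf9 (177) and Klf15 (185) are from mutant replicate 4.

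Klf2, Klf4, Klf6 and Klf10 are genes that cells induce quickly after a stimulus. Klf6 (chromosome 13, 5861482-5870394, plus strand, GRCm38/mm10, GENCODE M21), a factor linked to injury responses and to growth arrest, was measured at 304, 208, 293 and 269 CPM in the WT libraries, named in the order of their replicate numbers here and below, and at 323, 329, 373 and 370 CPM in the mutant libraries. The lowest mutant library was above the highest WT library. The difference was 1.30-fold (log2 fold change 0.38, SE 0.19, 95% interval -0.03 to 0.78), and it did not pass edgeR's quasi-likelihood test (unadjusted p = 0.0665, adjusted p = 0.466). The change was not carried by 1 library, because it ran from 0.27 to 0.44 on the log2 scale over the 8 fits that each leave out 1 library. The mutant libraries were closely alike for this gene, since their SD on the log2 scale was 0.11, and only 4.24% of the 448 genes of like level had a smaller one.

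Klf10 (chromosome 15, 38291463-38300706, minus strand), which TGF-beta induces early and which acts as a repressor, had 98.9, 115, 166 and 202 CPM in WT and 238, 282, 122 and 60.9 CPM in mutant libraries. Mutant replicates 1 and 2 were above every WT library, whereas mutant replicate 4 was below every WT library. The means of 145 ± 47.1 and 176 ± 102 CPM (SD, n = 4) thus hide a 4.63-fold range among the mutant libraries. The SD of its log2 values in the mutants, 1.01, was above that of 98.4% of the 1160 genes of like level. The log2 fold change was 0.27 (SE 0.38, edgeR adjusted p = 0.853) with all libraries and 0.56 (adjusted p = 0.516) without mutant replicate 4, and it was -0.05 without mutant replicate 2.

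Klf2 (chromosome 8, 72319033-72321656, plus strand), which blood flow induces in endothelium, had 184, 168, 117 and 149 CPM in WT and 128, 160, 112 and 89.6 CPM in mutant libraries. The ranges overlapped, with the lowest WT library below the 2 highest mutant libraries. The log2 fold change was -0.33 (SE 0.22, 95% interval -0.81 to 0.14, edgeR adjusted p = 0.604), and without mutant replicate 4 it was -0.21.

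Endothelial markers are given here because Klf2 is abundant in endothelial cells. The 10 markers summed to 648 to 944 CPM in WT libraries and to 518, 597, 604 and 812 CPM in mutant libraries, with Tek making up the larger part of most of them. Without Tek the sums overlapped, at 271 to 456 CPM in WT and 176, 301, 318 and 483 CPM in mutant libraries. None of the 10 was called and 7 had a fitted change below 0, with a median log2 fold change of -0.23 with all libraries and -0.50 without mutant replicate 4. Tek (log2 fold change -0.59, edgeR adjusted p = 0.208) and Cdh5 (-1.17, adjusted p = 0.215) had all mutant libraries below all WT libraries, whereas Fabp4 (0.50), Vwf (0.40) and Cldn5 (0.27) had fitted changes above 0 and were not called. The part of these markers in the Klf2 values was not tested. In bulk libraries fewer cells of a type and less RNA per cell cannot be told apart.

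Klf4 (chromosome 4, 55527143-55532466, minus strand), a factor of vascular cells and of stem cells, had 236, 312, 193 and 248 CPM in WT and 260, 272, 259 and 174 CPM in mutant libraries. Mutant replicates 1 to 3 lay close together within the WT range and mutant replicate 4 below it. Its log2 fold change was -0.03 (SE 0.21, 95% interval -0.49 to 0.42, edgeR adjusted p = 0.972), so a rise or fall of more than about 0.5 log2 units lay outside the interval. Without mutant replicate 4 the sign changed, at 0.09.

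Other genes of the immediate-early kind are given beside these 4 KLFs as a list of 24 that tissue dissociation is known to induce. Its sum ran from 3433 to 6965 CPM in WT and from 8915 to 13803 CPM in mutant libraries, with no overlap. Of the 24 genes, 3 passed edgeR's test upward and 0 downward, beside 53 genes (0.407%) called over all genes tested. A fitted change above 0 was found in 22, with a median log2 fold change of 1.19 beside 0.02 over all genes tested. All mutant libraries lay above all WT libraries for 15 of the 24, beside 4.06% of all genes tested. The called genes were Ier3 (1.88, edgeR adjusted p = 0.0221), Gadd45b (1.74, adjusted p = 0.0239), which responds to DNA damage and stress, and Btg2 (2.08, adjusted p = 0.0315), an anti-proliferative gene. These calls changed with the library left out, as did those over all genes. Without WT replicate 4 or mutant replicate 3, 0 of the 24 were called. Without WT replicate 3 it was 8, the most, and all such calls were upward. The median ran from 0.99 to 1.35. Over all genes tested the number called was 13 without WT replicate 4, 17 without mutant replicate 3 and 49 without WT replicate 3.

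The libraries were ordered by this list nearly as by Klf6, and not as by the other 3 immediate-early KLFs. From the highest sum to the lowest the order was mutant replicates 3, 4, 2 and 1 and then WT replicates 3, 1, 4 and 2, and for Klf6 it was the same apart from WT replicates 1 and 3, which changed places. Mutant replicate 3, with the highest sum at 13803 CPM, was the highest library for Klf6 at 373 CPM and the second lowest of the mutant libraries for Klf2 and for Klf10. WT replicate 2, with the lowest sum at 3433 CPM, was the lowest library for Klf6 at 208 CPM and the highest for Klf4 at 312 CPM. That the mutant libraries came first in both orders follows from the lack of overlap in each, so only the order within each genotype adds to it. This likeness in order is a description over 8 libraries, both values coming from the same libraries. How far handling of the tissue contributed to either the list or the KLFs was not tested.

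Klf9, Klf13 and Klf15 are factors of metabolism, hormone response and growth, and Klf15 is known to restrain growth and fibrosis in the heart. Klf15 (chromosome 6, 90462576-90475238, plus strand), whose promoter with its 3 E-boxes is given above, had 56.9, 94.6, 17.1 and 74.3 CPM in WT and 81.0, 48.0, 117 and 517 CPM in mutant libraries. Mutant replicates 1 and 2 were within the WT range, mutant replicate 3 was a little above it and mutant replicate 4 was far above it. The fold change was 3.17 (95% interval 1.26 to 8.02, log2 fold change 1.67 with an SE of 0.63), with an unadjusted p of 0.0180 and an adjusted p of 0.304 by edgeR's quasi-likelihood test.

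That size of change was rare, since 3.81% of the genes tested had a larger one. It rested on mutant replicate 4, and without it the log2 fold change was 0.44 (SE 0.42, edgeR adjusted p = 0.786). Klf15 passed the adjusted threshold under 1 alternative, the edgeR fit with no filter on low counts (log2 fold change 1.64, adjusted p = 0.0131), where 1.45% of all genes were called. With limma-voom and quality weights for the libraries, all 8 of them kept, the log2 fold change was 0.76 (limma adjusted p = 0.455). Over all alternatives the adjusted p ran from 0.0131 to 0.786.

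Klf15 had the largest SD of log2 values among the 9 tested members in each genotype. Its highest library was 5.53 times its lowest among the WT and 10.8 times its lowest among the mutant libraries. The SDs of its log2 values, 1.09 in WT and 1.47 in mutant libraries, were above those of 99.6% of the 2005 genes of like level in each genotype, whose medians were 0.28 and 0.32.

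Klf9 (chromosome 19, 23141226-23168134, plus strand), a direct target of glucocorticoid and thyroid hormone receptors, had 363, 444, 263 and 403 CPM in WT and 371, 267, 536 and 854 CPM in mutant libraries. As for Klf15, WT replicate 3 was the lowest of all libraries, mutant replicate 4 the highest, mutant replicate 3 the second highest, and mutant replicate 2 the lowest of the mutants. The difference was 1.38-fold (log2 fold change 0.46, SE 0.31, 95% interval -0.19 to 1.11, edgeR adjusted p = 0.610), and 0.09 on the log2 scale (adjusted p = 0.944) without mutant replicate 4. With limma-voom it was 0.14 on the log2 scale (limma adjusted p = 0.837).

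Klf13 (chromosome 7, 63886351-63938915, minus strand), a relative of Klf9 that takes part in heart development, had 230, 392, 203 and 242 CPM in WT and 182, 114, 253 and 288 CPM in mutant libraries. Its highest library was WT replicate 2 and its lowest mutant replicate 2. The log2 fold change was -0.35 (SE 0.28, 95% interval -0.96 to 0.26, edgeR adjusted p = 0.709). It was -0.54 (adjusted p = 0.509) without mutant replicate 4, -0.11 without WT replicate 2 and -0.15 without mutant replicate 2.

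Targets of the glucocorticoid receptor are given beside Klf9 and Klf15. The 12 genes of the list summed to 1119, 2935, 1281 and 1379 CPM in WT and 1240, 1296, 3065 and 7768 CPM in mutant libraries. Mutant replicate 4 was far above all other libraries, and mutant replicate 3 and WT replicate 2 came next. These were also the highest mutant libraries and the highest WT library for both Klf9 and Klf15. Of 11 genes tested 0 were called in either direction and 10 had a fitted change above 0. The median log2 fold change was 1.0 with all libraries and 0.43 without mutant replicate 4.

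Single genes of the list showed the same library. Tsc22d3, which encodes the anti-inflammatory protein GILZ, had 333, 928, 265 and 434 CPM in WT and 291, 303, 777 and 3066 CPM in mutant libraries. Mt1, Sgk1 and Pdk4 had the lowest p-values of the list, with log2 fold changes of 1.78, 1.29 and 2.18 (edgeR adjusted p = 0.134, 0.209 and 0.219), and of 1.02, 0.85 and 0.87 without mutant replicate 4. Mutant replicate 4 was the highest library for 9 of the 11 genes tested.

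The myocyte markers were also highest in that library, and myocytes express Klf15. Mutant replicate 4 was the highest library for all 9 myocyte markers tested, among them Myh6, at 2046 CPM beside 97.5 to 368 in the other libraries. The median log2 fold change of these 9 was 1.18 with all libraries and -0.60 without mutant replicate 4. Mutant replicate 3 had Klf9, Klf15 and summed glucocorticoid target levels above the WT range and a myocyte sum of 431 CPM, within the WT range, although 2 of its myocyte markers were above that range, Myh7 at 61.7 CPM (at most 16.1 in WT) and Pln at 14.9 CPM (at most 7.25 in WT). The part of myocyte RNA in the Klf15 and Klf9 values was not tested.

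**Figure D4:**
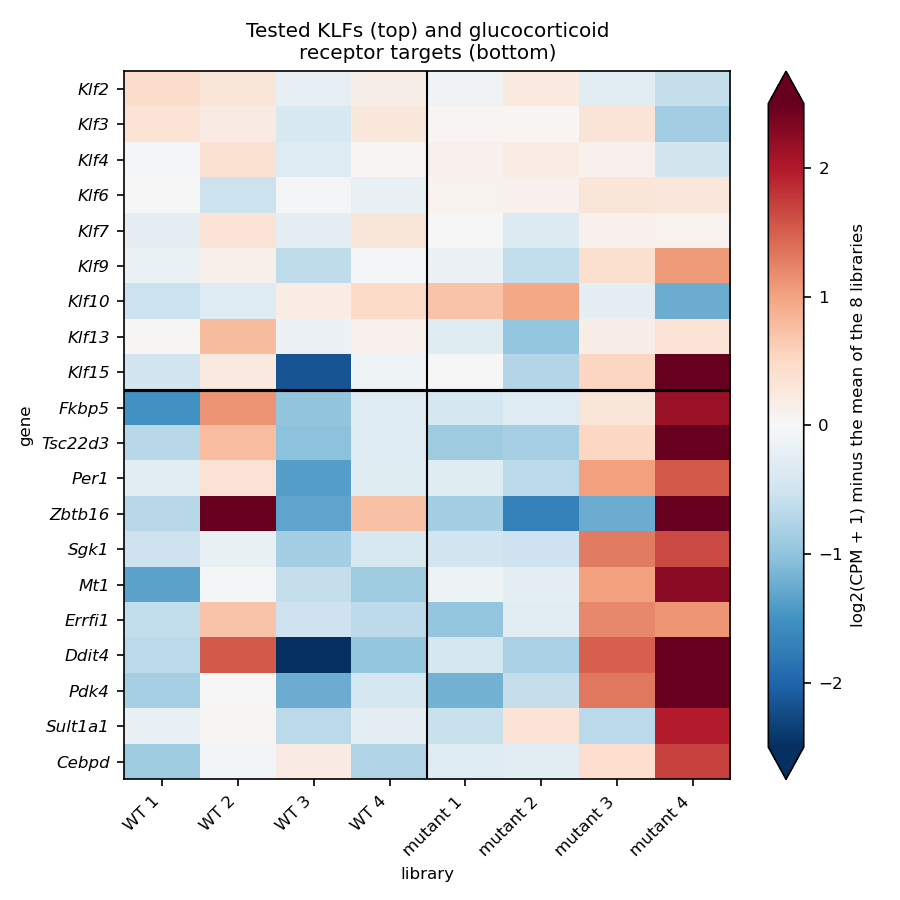
Tested KLFs (upper block) and glucocorticoid receptor targets (lower block) in the 8 libraries, as log2(CPM + 1) minus the mean of the 8 libraries for each gene (red above, blue below, arrows on the scale mark values beyond its ends). The Klf15 row has its darkest red in mutant replicate 4 and its darkest blue in WT replicate 3, where Ddit4 also has its darkest blue.

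Several circadian clock genes passed the test between genotypes. The 18 clock genes summed to 1301 to 1554 CPM in WT and 1598 to 2587 CPM in mutant libraries. By edgeR's test 4 of the 18 rose and 1 fell, beside 0.407% of all genes tested called in either direction. The median log2 fold change was 0.73. All mutant libraries lay above all WT libraries for 4 of the 18 and below them for 2. The shares over all genes tested were 4.06% and 3.97%. Tef (1.76, adjusted p = 0.0221), Nr1d2 (1.25, adjusted p = 0.0366), Per3 (1.83, adjusted p = 0.0368) and Hlf (1.34, adjusted p = 0.0368) rose, and Npas2 (-1.44, adjusted p = 0.0463) fell. Tef and Hlf are D-box binding output genes, Nr1d2 and Per3 are repressors of the loop, and Npas2 is a partner of BMAL1.

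Klf9, Klf10 and Klf15 are known to cycle, and their values are set beside those of the clock genes. Tef had 414 CPM in mutant replicate 1, its highest library, where Klf15 (81.0 CPM) and Klf9 (371 CPM) were within the WT range and Klf10 (238 CPM) was above it. In mutant replicate 4 Tef was nearly as high at 391 CPM, and there Klf9 and Klf15 were highest and Klf10 was lowest. These clock calls changed with the library left out, as did those over all genes. Clock calls numbered 0 without WT replicate 1, 3 or 4 and 1 without mutant replicate 1 or 3. They numbered 3 without WT replicate 2 or mutant replicate 2, and 4 without mutant replicate 4. Over all genes tested, 24, 24, 49 and 13 were called without WT replicates 1 to 4. Without mutant replicates 1 to 4, 52, 26, 17 and 76 were called. The median of the clock list stayed at 0.48 (without mutant replicate 4) to 0.88. The time of day at which the hearts were taken is not given in the sources used here.

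**Figure D5:**
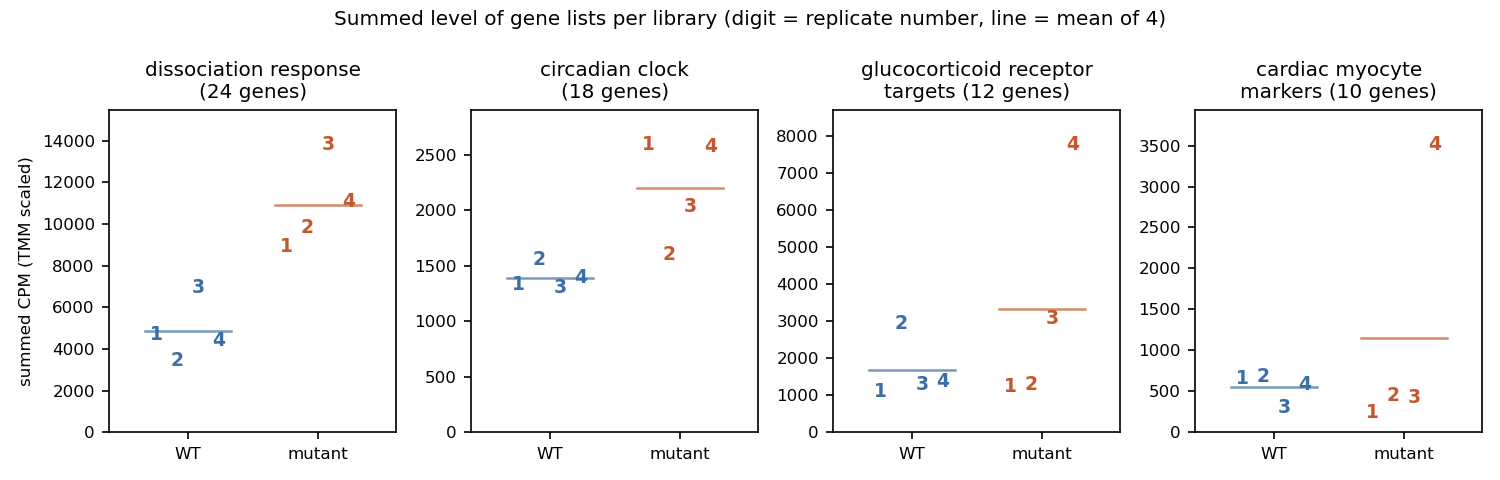
Summed level of 4 gene lists in CPM (linear axes that start at 0), where each digit is 1 library, marked by its replicate number, and lines are means of 4. The dissociation and clock sums of all mutant libraries lie above those of all WT libraries, whereas the glucocorticoid and myocyte sums are highest in mutant replicate 4, at 7768 and 3509 CPM.

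Klf3, Klf7 and Klf5 complete the set. Klf3 (chromosome 5, 64803388-64832901, plus strand), a repressor that recruits CtBP, had 214, 193, 130 and 204 CPM in WT and 176, 175, 211 and 92.1 CPM in mutant libraries. Apart from mutant replicate 4 all mutant libraries were within the WT range. The log2 fold change was -0.18 (SE 0.25, 95% interval -0.72 to 0.36, edgeR adjusted p = 0.854), and 0.01 without that library.

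Klf7 (chromosome 1, 64029447-64122282, minus strand), known from neurons and adipocytes, had 65.2, 97.6, 65.0 and 95.6 CPM in WT and 76.3, 61.1, 83.7 and 81.7 CPM in mutant libraries. The WT libraries fell into a lower and a higher pair, and the mutant libraries lay between and just below them. Its log2 fold change was -0.09 (SE 0.22, 95% interval -0.55 to 0.37, edgeR adjusted p = 0.926), and it was 0.00 without WT replicate 2 or WT replicate 4.

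Klf5 (chromosome 14, 99298691-99315036, plus strand), which fibroblasts and smooth muscle are known to induce after injury, was barely detected. It had 20, 0, 9 and 7 counts in WT and 0, 40, 0 and 0 counts in mutant libraries, that is 36 and 40 counts in all. A single mutant library held all mutant counts, at 4.17 CPM. For the 4 libraries at 0, the limit that a count of 0 allows (3 counts of the library's total) was 0.240 to 1.44 CPM, and the highest of these limits, in the shallow WT replicate 2, is above the 0.725 CPM measured in WT replicate 4. The limit of 0.240 CPM was that of mutant replicate 4, the deepest library. No difference was detectable with counts this low and this uneven between libraries.

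The rest of the Sp/KLF family was listed for 14 further genes, of which 8 were high enough to test. Among these 8, 0 were called in either direction (5 above 0 and 3 below), with a median log2 fold change of 0.18. Sp4 had all mutant libraries above all WT libraries, at 31.4 to 41.9 CPM against 15.1 to 27.5 CPM, without passing the test (log2 fold change 0.66, edgeR adjusted p = 0.361). Klf11, the closest relative of Klf10 and like it induced by TGF-beta, had 29.0, 44.8, 10.9 and 44.7 CPM in WT and 82.1, 63.9, 37.5 and 34.8 CPM in mutant libraries (0.77, adjusted p = 0.478). For Klf11, as for Klf10, mutant replicates 1 and 2 were above every WT library and mutant replicate 4 was the lowest mutant library. Sp3 had the third lowest p of this list (0.29, edgeR adjusted p = 0.721).

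Proteins that act on or with KLFs showed no called gene. The 20 corepressors, ubiquitin ligases and upstream kinases and factors, all of them tested, split into 10 above and 10 below 0 with a median log2 fold change of 0.02, and 0 were called. Those with the lowest p were Wwp1, a ubiquitin ligase of Klf2 and Klf5 (0.51, edgeR adjusted p = 0.535), Ctbp2, a corepressor of Klf3 (0.40, adjusted p = 0.556), and Kat2b, an acetyltransferase (0.30, adjusted p = 0.584).

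Of 17 tested genes that are known as targets of single KLFs, 0 were called, with 8 above 0, 9 below 0 and a median of -0.07 (7 above, 10 below and -0.23 without mutant replicate 4). Igf1, a growth factor gene, had 302, 338, 340 and 316 CPM in WT and 201, 218, 208 and 200 CPM in mutant libraries. These ranges did not overlap, but the log2 fold change of -0.65 (SE 0.17) did not pass the adjustment (edgeR adjusted p = 0.134). Tgfbr1, a TGF-beta receptor and target of Klf6, had 75.5 to 101 CPM in WT and 105 to 206 CPM in mutant libraries, again with no overlap (0.83, adjusted p = 0.138). Lgals3 was at 1.97 to 6.54 CPM in WT and at 10.3, 7.09, 3.57 and 58.3 CPM in mutant libraries (2.73, adjusted p = 0.189), and its log2 fold change was 1.16 (adjusted p = 0.700) without mutant replicate 4.

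Markers of cell types held no called gene. The 7 pericyte and smooth muscle markers summed to 260 to 424 CPM in WT and 216 to 574 CPM in mutant libraries, the highest being mutant replicate 4, with a median log2 fold change of -0.07 with all libraries and -0.38 without mutant replicate 4. The 5 red cell genes summed to 31.6 to 365 and 16.8 to 666 CPM. Of all fibroblast, mural, leukocyte, myocyte, endothelial and red cell markers that were tested, 0 were called in either direction. No listed marker was at 0 in every library.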

How the data were processed

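RNA (RIN above 8) from sorted cardiac fibroblasts was made into stranded libraries depleted of ribosomal RNA; 150 bp reads were aligned with HISAT2 to mm10 and assigned to GENCODE genes with featureCounts. The authors deposited raw counts per gene for each library, and these were used as deposited. The authors removed unwanted variation with RUV and tested with DESeq2; these were alternatives here. The members and gene lists were chosen with earlier results of these data known.

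Counts were tested with edgeR 4.0.16 (R 4.3.3; TMM factors, filterByExpr, quasi-likelihood fit of genotype, Benjamini-Hochberg adjustment), DESeq2 1.42.0 and limma 3.58.1 being alternatives, along with other scalings and filters, RUVr, a replicate block, thinning and leaving out each library. CPM used TMM factors. Exon lengths and coordinates came from GENCODE M21 (18918 of 18957 symbols matched; 24 symbols had been turned into dates). Ccn2 is listed as Ctgf. Per1 is on both the glucocorticoid and the clock list, and Cebpd on both the glucocorticoid and the dissociation list. The text names the 10 members, Lmna, and from each gene list other than the cell type markers the genes called plus the 3 with the lowest unadjusted p. Tek, Cdh5 and Ddr2, for which the genotypes did not overlap, and Tsc22d3, Myh6, Myh7, Pln, Fabp4, Vwf, Cldn5 and Ddit4, as library values behind a statement, were named after their values were seen. The 5 genes nearest to a member are those with the smallest mean absolute difference of centred log2 CPM (prior count 2). Like-level genes lie within 0.5 log2 units of a member's mean. The scripts were tested on simulated data. Counting intervals cover counting error only.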

Additional observations from a re-analysis of the deposited data

Results flagged for a closer look

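Of 22 groups of 4 libraries tested, by Dixon's 95% critical value, for a library far from the rest, 3 held one, and chance flags about 1 in 20 such groups. Klf15 in mutant replicate 4 stood at 517 CPM, with a gap to the nearest mutant library of 0.854 of the group's range. Klf4 in mutant replicate 4 stood at 174 CPM, below the other mutant libraries (gap 0.863 of the range). Klf5 in mutant replicate 2 stood at 4.17 CPM, the other mutant libraries being at 0 (gap 1 time the range), on a total of 40 counts. With the other values tied at 0 this gap is 1 time the range whatever the count, so it says nothing beside the chance rate.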

How the results depend on the processing

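The number of members called was 0 under all settings, leave-one-out fits included (0 to 0), except with no filter on low counts, where it was 1 (Klf15). The number of genes called, 53, became 303 with DESeq2, 138 with limma-voom, 274 with no filter, 81 with 1 RUVr factor in edgeR and 456 with DESeq2 and 1 RUVr factor, and ran from 13 (without WT replicate 4) to 76 (without mutant replicate 4) with a library left out. Klf6 was the 1 member without overlap under each setting that was run for it. For Klf6 the fits with a library left out add nothing to this. Groups without overlap stay so when a library is taken out, apart from rescaling. With no length term 9 members changed place in the WT order of levels. With a WT library left out 0 to 4 changed place in the WT order, and with a mutant library left out 0 to 6 in the mutant order. Of 90 values of single members under alternatives that kept all libraries, 0 changed direction and 1 newly passed the threshold; of 72 with a library left out 6 changed direction, in Klf3 (-0.33 to 0.013), Klf4 (-0.14 to 0.0945), Klf7 (-0.19 to 0.0033) and Klf10 (-0.053 to 0.56). Deviations of same-numbered libraries correlated at -0.03 to 0.04, so the numbers were not taken as pairs; with the replicate number as a block 36 genes and 0 members were called, and the log2 fold change of Klf15 was 1.32 (edgeR adjusted p = 0.441). WT replicate 2 had the fewest counts, and with all libraries thinned to its total 60 genes and 0 members were called. Klf5 had low counts that were uneven between libraries, and with no filter its log2 fold change was -0.01 with an SE of 1.95. The causes of these changes were not tested.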

Other observations

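The genes whose centred log2 levels followed Klf15 most closely over the 8 libraries were Glul (glutamine synthetase), Il6ra, Per1, Tsc22d3 and Npr3, with mean absolute differences of 0.363, 0.398, 0.421, 0.425 and 0.425 log2 units, beside a median of 1.01 over all other tested genes. Glul had 271, 432, 216 and 322 CPM in WT and 314, 200, 459 and 2873 CPM in mutant libraries, so that mutant replicate 4 was again far above the others and mutant replicate 2 the lowest. Per1 had 108, 170, 50 and 106 CPM in WT and 107, 82.0, 269 and 381 CPM in mutant libraries. Per1 and Tsc22d3 are glucocorticoid receptor targets of the list described above; the likeness is a description over 8 libraries and has no test.

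For Klf6 the nearest genes were Swap70, Tbrg1, Cul4b, Togaram1 and Zscan26, with mean absolute differences of 0.0485, 0.0615, 0.0734, 0.0855 and 0.0856 log2 units beside a median of 0.458. Tbrg1, a regulator of TGF-beta responses and growth, had 121, 97.6, 126 and 123 CPM in WT and 156, 148, 166 and 170 CPM in mutant libraries, with no overlap, and did not pass the test (log2 fold change 0.45, edgeR adjusted p = 0.332).

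Klf14, another KLF, which was too low for the test and was picked out here after its values were seen, was at 0 in all 4 WT libraries and at 0.621, 2.71, 3.91 and 0.667 CPM in mutant replicates 1 to 4. The limit that a count of 0 allows was 0.279, 1.44, 0.473 and 0.304 CPM in WT replicates 1 to 4, so that only mutant replicates 2 and 3 lay above the limits of all WT libraries. Klf8, also too low for the test and also named after its values were seen, went the other way. It was at 0.374, 1.51, 0 and 0.104 CPM in WT replicates 1 to 4 and at 0 in all 4 mutant libraries. How often genes this low show such a pattern was not tested.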
